A study of Mus musculus with 6 samples.

Results

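The genes of the BCL-2 family that keep lymphocytes alive or commit them to death were measured in natural killer T (NKT) cells with and without DOCK8. The 10 genes considered were chosen by symbol, and every probe whose platform annotation gave one of these symbols alone was taken. That gave 32 probes of 9 genes, out of 34885 singly annotated probes of 19057 genes. Bax was not analysed here. The groups were mature thymic NKT cells sorted as CD44+ and NK1.1+ from the DOCK8-deficient Captain Morgan strain (3 samples, titled DOCK8 knockout) and from wildtype mice (3 samples), all of strain C57BL/6. The labels describe no treatment and do not give the animals' age, nor whether a sample was 1 animal or a pool, so the spread behind each p-value is that between these 6 samples and may be technical. Each sample was read on 1 Illumina mouse array of 45281 probes, in a series whose title concerns the survival and function of NKT cells.

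BCL-2 family proteins meet at the outer membrane of the mitochondrion. The survival proteins BCL-2, BCL-XL, BCL-W and MCL-1 hold the pore-forming proteins BAX and BAK in check, and BH3-only proteins such as BIM, PUMA, NOXA and BID bind the survival proteins or activate the pore formers directly. Once BAX or BAK opens the membrane, cytochrome c leaves and caspases are activated through APAF1. In NKT cells, survival after thymic selection depends on interleukin-15, which sustains BCL-2 family survival genes.

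On each array between 36.4% and 40.7% of the probes were detected above background (detection p under 0.05). With 3 arrays a group, precision is limited throughout. All 9 listed genes of the NKT lineage were detected on all 6 arrays, including Zbtb16, Tbx21, Il2rb and Klrb1c, which encodes NK1.1. Of the sort markers, Cd44 differed by 0.54, 0.37, 0.15 and 0.04 on the log2 scale on its 4 tested probes (limma adjusted p from 0.23 to 0.95, over all probes tested), the last being the brightest. Genes listed as markers of other cells that a thymic sort could hold were examined too. All 8 tested probes of double-positive thymocyte genes were lower, where 48% of all tested probes were higher. Several of the 8 belong to Cd8b1, and the tested Themis probe was detected on 1 DOCK8-deficient and all 3 wild type arrays. The summed signal over the 15 probes of that list was 2479 to 3130 on the DOCK8-deficient arrays, against 3211 to 3871 on the wild type arrays. This linear sum rests mostly on probes of Cd8b1 and Cd1d1. The tested Cd8b1 probes differed by -0.75, -0.45 and -0.07, the last being the brightest. Cd1d1 differed by -0.77, Rag1 by -0.49 and Cd4 by -0.05 (limma adjusted p from 0.28 to 0.96 over these probes). Dntt, the terminal transferase gene of that list, was detected on 0 of the DOCK8-deficient arrays and on all 3 wild type arrays. It was at least 2.42-fold lower in DOCK8-deficient cells, whereas Rag2 and Cd8a were detected on 0 arrays in either group. Since the Dntt probe entered the fit through the wild type arrays alone, its p-value is not read here, and its direction adds nothing to the count of 8 lower probes. Of 7 tested probes of the myeloid list 6 were higher and 0 passed the test, with Fcgr3 at 0.84 and Mpeg1 at 0.76 (adjusted p = 0.19 and 0.32). The summed signal of the 18 myeloid probes was 8393 to 9523 on the DOCK8-deficient arrays, against 7470 to 8466 on the wild type arrays, and Itgam, Cd14 and Spi1 were detected on 0 arrays. That sum is on the linear scale and rests mostly on its brightest probes, Fcer1g and Cst3. Each of them differed by 0.17 (adjusted p = 0.75 and 0.73). Whether probes of this list, Fcgr3 and Fcer1g among them, read myeloid cells or the NKT cells themselves was not tested. Csf1r was the tested myeloid probe that was lower, at -0.16. B cell probes gave sums of 271.5 to 542.9 on the DOCK8-deficient arrays, against 280.6 to 463.7 on the wild type arrays. Blk read 0.29 and 0.00061 on its 2 tested probes and Cd79b -0.12, and Ms4a1 and Pax5 were detected on 0 arrays. Double-positive thymocytes are known for low Bcl2 and high Bcl2l1, and the part of such cells in the values given here was not tested. In bulk samples, fewer cells of a type and less RNA per cell cannot be told apart.

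Of the 32 probes, 21 were detected on at least 3 of the 6 arrays and were tested, and at least 1 probe of each of the 9 genes was among them. These were 6 probes of Bcl2, 3 of Bbc3, 2 each of Bcl2l1, Bcl2l2, Bcl2l11, Pmaip1 and Bid, and 1 each of Mcl1 and Bak1. Among them, 15 were detected on all 6 arrays and 6 on 3 to 5 arrays, and none of these 6 was detected in 1 group alone. Of the 11 untested probes, 7 were detected on 0 arrays, 3 on 1 array and 1 on 2 arrays.

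No gene of the family passed the test. Of the 21 probes, 0 passed in either direction at an adjusted p of 0.05 (limma, Benjamini-Hochberg over 14559 detected probes), where 0.213% of all tested probes passed. At an unadjusted p under 0.05 there was 1 of the 21, a Bcl2 probe that was higher, against 10.1% of all tested probes (4.88% higher and 5.22% lower). The values of the 3 DOCK8-deficient arrays did not overlap those of the 3 wild type arrays for 5 of the 21 probes (23.8%), against 15.9% of all tested probes. Of these 5, 2 were higher (Bcl2 and Bid) and 3 were lower (2 Bcl2l2 probes and 1 Bcl2l11 probe), against 7.97% and 7.98% of all tested probes. These shares rest on few probes that share genes. The median difference was -0.02 on the log2 scale over the 21 probes and -0.01 over all probes tested, and the median size of a difference was 0.22 against 0.16. The 21 differences ran from -0.36 to 0.59. All 21 intervals (95%, each for its own probe) lay within a 3-fold change, 18 within a 2-fold change and 6 within a 1.5-fold change. The 3 intervals that reached past 2-fold belonged to Bcl2 probe ILMN_2682162, Bcl2l1 probe ILMN_2698430 and Bbc3 probe ILMN_2690621, each at its upper end.

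Among the survival genes, Bcl2 encodes the founding member, which guards resting lymphocytes against loss of cytokine. Its brightest probe, ILMN_1249021, read 11.26, 11.13 and 11.43 on the DOCK8-deficient arrays, against 10.71, 11.19 and 11.10 on the wild type arrays (normalized signal, log2). The groups overlapped, with wild type array 1 the lowest and DOCK8-deficient array 3 the highest. The difference was 0.27 ± 0.17 (SE), with an interval of -0.12 to 0.67 (adjusted p = 0.65). The second probe, ILMN_1249366, read 10.55, 10.48 and 10.54 on the DOCK8-deficient arrays, against 10.27, 10.45 and 10.60 on the wild type arrays, a difference of 0.08.

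Another Bcl2 probe, ILMN_2682162, differed more. It is annotated to transcript NM_177410, whereas the other 5 tested Bcl2 probes are annotated to NM_009741. It read 9.87, 10.01 and 10.06 on the DOCK8-deficient arrays, against 8.93, 9.55 and 9.83 on the wild type arrays. Every DOCK8-deficient value stood above every wild type value, though the wild type values spread over a wide range. The difference was 0.54 ± 0.23, or 1.46-fold, with an interval of 0.02 to 1.07 (unadjusted p = 0.0435, adjusted p = 0.48). Without wild type replicate 1 it was 0.29, and without wild type replicate 3 it was 0.75.

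The 3 remaining Bcl2 probes read slightly lower in DOCK8-deficient cells, each within its error. ILMN_2706514 read 9.60, 9.72 and 9.61 on the DOCK8-deficient arrays, against 9.43, 9.80 and 10.03 on the wild type arrays, a difference of -0.11. ILMN_1215796 read 8.85, 7.89 and 8.37 on the DOCK8-deficient arrays, against 8.49, 8.34 and 8.34 on the wild type arrays, a difference of -0.02. ILMN_2597567 read 8.59, 7.76 and 7.81 on the DOCK8-deficient arrays, against 8.15, 7.93 and 8.29 on the wild type arrays, a difference of -0.07. On both of these DOCK8-deficient array 2 was the lowest and DOCK8-deficient array 1 the highest, whereas on the 4 brighter Bcl2 probes wild type array 1 was the lowest. The 6 tested probes of Bcl2 thus split into 3 higher and 3 lower, from -0.11 to 0.54, with adjusted p from 0.48 to 0.99. The 3 untested Bcl2 probes were ILMN_2597272, detected on DOCK8-deficient array 3 alone, and ILMN_1243345 and ILMN_2500078, detected on 0 arrays.

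Bcl2l1 encodes BCL-XL, the survival protein that sustains thymocytes at the double-positive stage. Its brighter probe, ILMN_2698430, read 7.03, 6.25 and 5.76 on the DOCK8-deficient arrays, against 5.16, 5.97 and 6.16 on the wild type arrays. DOCK8-deficient array 3 lay below 2 of the wild type arrays, so the groups overlapped, and the probe was undetected on wild type array 1. The difference was 0.59 ± 0.36 with an interval of -0.25 to 1.42 (adjusted p = 0.65). It was 0.23 without DOCK8-deficient replicate 1 and 0.29 without wild type replicate 1, read 0.88 without DOCK8-deficient replicate 3, and read 0.17 without background correction. The second probe, ILMN_2647885, pointed the other way, with 5.51, 4.91 and 5.02 on the DOCK8-deficient arrays, against 5.33, 5.63 and 5.55 on the wild type arrays. Its difference was -0.36 ± 0.19 (adjusted p = 0.58), and it was detected on 1 DOCK8-deficient and 2 wild type arrays. The other 2 Bcl2l1 probes were detected on 0 arrays.

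Bcl2l2 encodes BCL-W, a survival protein close to BCL-XL in function. Probe ILMN_2636443 read 7.47, 7.33 and 7.21 on the DOCK8-deficient arrays, against 7.66, 7.62 and 7.61 on the wild type arrays. All 3 DOCK8-deficient values lay below the wild type values, which lay close together. The difference was -0.29 ± 0.13 with an interval of -0.59 to 0.01 (adjusted p = 0.51). The second probe, ILMN_2936517, read 6.88, 7.01 and 6.79 on the DOCK8-deficient arrays, against 7.18, 7.12 and 7.04 on the wild type arrays, again without overlap. It differed by -0.22 ± 0.13 (adjusted p = 0.62). With any 1 array left out and the rest normalized anew, the differences of both probes ranged from -0.36 to -0.17. But for the new normalization, groups without overlap must keep their sign. Of the 3 untested Bcl2l2 probes, ILMN_1255755 was detected on 2 DOCK8-deficient arrays and the others on 0 arrays.

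Mcl1 encodes a short-lived survival protein that T cells need at every stage. Its 1 probe, ILMN_1216732, read 12.09, 12.12 and 11.88 on the DOCK8-deficient arrays, against 12.26, 12.01 and 12.06 on the wild type arrays. The values interleaved, with DOCK8-deficient arrays averaging 12.03 ± 0.13 and wild type arrays 12.11 ± 0.13 (SD, n = 3 each). The difference was -0.08 ± 0.14 with an interval of -0.41 to 0.25 (limma adjusted p = 0.89), 1 of the 6 intervals that lay within a 1.5-fold change. It ranged from -0.13 to -0.0019 with 1 array left out.

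Among the BH3-only genes, Bcl2l11 encodes BIM, which removes lymphocytes after cytokine loss and autoreactive cells in the thymus. Probe ILMN_3157568 read 8.60, 9.06 and 8.81 on the DOCK8-deficient arrays, against 8.93, 9.15 and 9.10 on the wild type arrays. DOCK8-deficient array 2 lay within the wild type range, and the difference was -0.23 ± 0.16 (adjusted p = 0.68). Probe ILMN_2590638 read 7.08, 7.03 and 7.20 on the DOCK8-deficient arrays, against 7.75, 7.38 and 7.23 on the wild type arrays. Here the groups did not overlap, though DOCK8-deficient array 3 and wild type array 3 lay next to each other. The difference was -0.35 ± 0.17 with an interval of -0.74 to 0.04 (adjusted p = 0.54), and -0.20 without wild type replicate 1. The 2 untested probes, ILMN_3078327 and ILMN_1229255, were each detected on wild type array 3 alone.

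Bbc3 encodes PUMA, a BH3-only protein induced by p53 and by FOXO factors. Its brightest probe, ILMN_2920736, read 9.89, 9.63 and 10.05 on the DOCK8-deficient arrays, against 10.17, 10.18 and 9.71 on the wild type arrays. The groups overlapped and the difference was -0.16 ± 0.18 (adjusted p = 0.82). The dimmer ILMN_2690620 read 6.36, 6.37 and 5.98 on the DOCK8-deficient arrays, against 6.55, 5.95 and 6.53 on the wild type arrays. These values overlapped too, and the difference was -0.11 ± 0.21 (adjusted p = 0.90). The third, ILMN_2690621, read 5.70, 6.26 and 6.90 on the DOCK8-deficient arrays, against 5.63, 6.23 and 5.67 on the wild type arrays. DOCK8-deficient array 3 stood high and the other values interleaved. The difference of 0.44 ± 0.31 (adjusted p = 0.69) was 0.14 without that array, 0.72 without DOCK8-deficient replicate 1 and 0.13 without background correction.

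Bcl2l11 and Bbc3 are known as targets of FOXO transcription factors, so the 250 bases before their annotated starts are shown where they hold the forkhead motif TGTTTAC on either strand. The sequences are RefSeq's, in mouse build GRCm38.p6, and capitals mark the motif as read on the strand shown. A window of Bcl2l11 (chr2:128125788-128126037, plus strand) has it from -227 to -221 relative to the start, and a window of Bbc3 (chr7:16310011-16310260, plus strand) from -167 to -161.
Bcl2l11: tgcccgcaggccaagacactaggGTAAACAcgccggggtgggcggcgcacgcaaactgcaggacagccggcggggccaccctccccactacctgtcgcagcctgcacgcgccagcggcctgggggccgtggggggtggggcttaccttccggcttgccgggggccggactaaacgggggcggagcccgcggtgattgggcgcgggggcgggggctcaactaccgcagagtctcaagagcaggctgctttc
Bbc3: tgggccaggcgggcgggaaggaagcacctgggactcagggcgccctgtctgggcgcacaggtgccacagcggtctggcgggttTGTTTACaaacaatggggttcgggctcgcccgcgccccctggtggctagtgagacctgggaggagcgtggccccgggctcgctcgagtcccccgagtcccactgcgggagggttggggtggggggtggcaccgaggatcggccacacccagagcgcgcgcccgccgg

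These were 1 of 2 windows of Bcl2l11 and 1 of 3 windows of Bbc3. Over the 13 windows of the 8 genes that had one, these 2 held the motif, as did 3.17% of all 32851 windows. A match is a description of letters, not a site of binding. The FOXO genes themselves did not pass: Foxo1 differed by 0.05 and -0.01 on its 2 tested probes, and Foxo3 by 0.20 on its 1 tested probe (adjusted p from 0.83 to 0.99).

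Pmaip1 encodes NOXA, a BH3-only protein that binds MCL-1. Its signal was near the limit of detection, with ILMN_2670625 detected on 1 DOCK8-deficient and 2 wild type arrays and ILMN_1245289 on 2 and 2. ILMN_2670625 read 6.18, 5.25 and 5.32 on the DOCK8-deficient arrays, against 5.44, 5.50 and 5.70 on the wild type arrays, a difference of 0.04 with an interval of -0.54 to 0.61. ILMN_1245289 read 5.71, 5.14 and 5.66 on the DOCK8-deficient arrays, against 5.90, 5.68 and 4.78 on the wild type arrays, a difference of 0.05 with an interval of -0.65 to 0.74. In each probe 1 array stood apart, DOCK8-deficient array 1 above in the first and wild type array 3 below in the second. The third probe was detected on 0 arrays.

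Bid encodes the BH3-only protein that caspase-8 cleaves, and so links death receptors to the mitochondrion. Probe ILMN_3161878 read 9.37, 9.47 and 9.20 on the DOCK8-deficient arrays, against 9.14, 9.14 and 9.11 on the wild type arrays. Every DOCK8-deficient value stood above the wild type values, which lay close together. DOCK8-deficient arrays averaged 9.35 ± 0.13 and wild type arrays 9.13 ± 0.02 (SD, n = 3 each), and the difference was 0.22 ± 0.13 with an interval of -0.09 to 0.52 (limma adjusted p = 0.63). The second probe, ILMN_2757287, was detected on 2 DOCK8-deficient arrays and 1 wild type array. It read 5.47, 4.93 and 5.83 on the DOCK8-deficient arrays, against 5.48, 5.05 and 5.29 on the wild type arrays, with overlap and a difference of 0.13 ± 0.24 (adjusted p = 0.89).

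Of the pore formers, Bak1 was measured by 1 dim probe, ILMN_2945835, detected on DOCK8-deficient arrays 1 and 3 and on wild type array 3. It read 5.53, 5.45 and 5.76 on the DOCK8-deficient arrays, against 5.14, 5.13 and 5.58 on the wild type arrays. Wild type array 3 lay within the DOCK8-deficient range, and the difference was 0.30 ± 0.17 (interval -0.10 to 0.70, adjusted p = 0.62), or 0.07 without background correction.

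Probes of the same gene did not always point one way. Of the 7 genes with more than 1 tested probe, Pmaip1 and Bid had all probes higher, Bcl2l2 and Bcl2l11 all lower, and Bcl2, Bcl2l1 and Bbc3 had probes on both sides. Counted over the 21 probes, 10 were higher (47.6%, against 48% of all tested probes) and 11 lower. DOCK8-deficient array 2 gave the lowest value of the 6 arrays on 7 probes and wild type array 1 on 6, and wild type array 1 also gave the highest value on 6.

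Other genes of the family and its pathway were taken from lists by role. Of 17 further BCL-2 family genes 9 had a tested probe, and of their 12 tested probes 0 passed, with a median of 0.02. The smallest p belonged to Bik, a BH3-only gene, at 0.47 ± 0.19 (adjusted p = 0.48), and to Bcl2a1d, of the A1 survival genes, at 0.23 ± 0.13 (adjusted p = 0.62), with 0.12 on its other tested probe. The A1 genes are near-identical copies that probes may not tell apart. The BH3-only genes Bmf and Hrk and the BAX relative Bok were detected on 0 arrays. Of 21 tested probes of proteins that bind BCL-2 family members or control their turnover, 0 passed, with a median of 0.07. Dynll1, the dynein light chain that binds BIM, read 0.28 ± 0.13, and Becn1, the autophagy protein that BCL-2 binds, read -0.38 ± 0.20 (adjusted p = 0.52 and 0.58). Their other tested probes, both brighter, read 0.13 and -0.04.

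Downstream of the pore, 1 of 19 tested probes fell and 0 rose. The fall was Casp9, the caspase activated with APAF1, which read 7.77, 6.89 and 7.24 on the DOCK8-deficient arrays, against 9.05, 8.83 and 9.04 on the wild type arrays (-1.67 ± 0.22, adjusted p = 0.046). Its other tested probe read 0.12 (adjusted p = 0.82). Further Casp9 probes, ILMN_2674731 and ILMN_2758139, are annotated to the same transcript as the probe that fell and were detected on 0 arrays. Casp9 no longer passed when DOCK8-deficient replicate 2 or 3 or any 1 wild type replicate was left out (adjusted p from 0.111 to 0.227). Nor did it pass when undetected probes were kept in the fit, or with the replicate number as a block.

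Among 27 tested probes of cytokine receptor chains, Janus kinases and transcription factors that act on the family, 0 passed, 20 were lower and 7 higher, with a median of -0.13. Over all tested probes 48% were higher, with a median of -0.01. Many of the 27 are probes of the same gene, Il7r above all, so the count is not one of separate genes. Stat5a read -0.51 and 0.45 on its tested probes (limma adjusted p = 0.45 and 0.53). Il7r, the interleukin-7 receptor chain that sustains Bcl2, read -0.56 ± 0.19 on its probe of smallest p (adjusted p = 0.38) and from -0.20 to -0.10 on its other tested probes. Myc, which can sensitise cells to death, read -0.61 ± 0.23 (adjusted p = 0.44). Il2rb, the receptor chain through which interleukin-15 acts, read 0.08 (adjusted p = 0.88).

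Targets of p53 other than the family members had 25 tested probes, of which 0 passed, with a median of -0.03. Sesn1, a stress-response gene, read 10.79, 10.91 and 10.43 on the DOCK8-deficient arrays, against 11.54, 11.47 and 11.63 on the wild type arrays (-0.83 ± 0.16, adjusted p = 0.12). It passed without background correction, in the deposited log2 values and with a trended robust prior (adjusted p = 0.00881, 0.0241 and 0.00152). In these settings the calls over all probes rose from 31 to 155, 112 and 191. Sesn1 passed under none of the other settings and with no array left out. Its other 2 tested probes read -0.61 and -0.78, also without overlap between groups. Trp53inp1, a p53-induced gene, likewise passed without background correction and with the trended robust prior, and under no other setting. It read -0.52 ± 0.14 and -0.51 ± 0.18 on its 2 tested probes (adjusted p = 0.26 and 0.40), without overlap on either. Over the 25 tested probes of this list, 7 had groups without overlap (6 lower and 1 higher), against 15.9% of all tested probes. Several of these 7 are probes of the same gene. Cdkn1a, the cell cycle inhibitor p21, read 1.05 ± 0.22 with detection in 1 wild type sample and all 3 DOCK8-deficient samples. The DOCK8-deficient arrays alone were enough to bring this Cdkn1a probe into the fit, so its p-value is not read here. Its wild type values lay near background, which leaves the size uncertain. The other tested Cdkn1a probe read 0.02. Beside these, the p53 and FOXO target Bbc3 read -0.16, -0.11 and 0.44 on its 3 probes.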

How the data were processed

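The deposited scanner table holds an intensity and a detection p-value for each probe, per the file headers, on a linear scale without background subtraction, judged from its values. The authors' second deposited table holds log2 values, judged from their range, and the normalization behind them was not given in the sources used here. Biotinylated cRNA was hybridised, per the labels' protocols. Samples were grouped by title. Slide and scan date were not known.

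Intensities were background corrected and quantile normalized with neqc (limma 3.58.1, R 4.3.3, offset 16) and are log2 values. Probes with 1 gene symbol and a detection p under 0.05 on at least 3 of the 6 arrays were fitted with lmFit and eBayes, 2-sided, as DOCK8-deficient over wild type. P-values were adjusted by Benjamini-Hochberg over all 14559 such probes, with a threshold of 0.05. Errors are moderated standard errors unless marked SD. Where a group had no array with the probe detected, the dim group's mean was taken over the higher of its value and the lowest detected value of each array, and the fold is a bound. Of the 32 member probes, 28 carry a transcript accession listed for their gene in RefSeq. The members and lists were chosen with earlier results of these data known. All members were named, and of each other list the called probes (at most 4) or else the 2 of smallest p. Foxo1, Foxo3, Il2rb, Stat5a, Trp53inp1, further genes of the marker lists, further probes of named genes and undetected genes were added after their values were seen. The fit was tested on simulated data. Alternatives were other background, scaling, values, filters, prior, 1 probe per gene, a replicate block and each array left out.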

Additional observations from a re-analysis of the deposited data

Results flagged for a closer look

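A Bcl2l2 probe that the test did not use, ILMN_1255755, passed the detection limit in 1 group alone. It was detected on 2 of the 3 DOCK8-deficient arrays and on 0 of the 3 wild type arrays, and so on too few arrays to enter the test. It read 5.32, 6.25 and 5.02 on the DOCK8-deficient arrays, against 4.89, 4.68 and 4.95 on the wild type arrays, a difference of 0.69 on the log2 scale that is not a measured size. Set against the lowest detected signals of the wild type arrays it was at least 1.096-fold higher, with the undetected DOCK8-deficient array 3 in the mean. The probe was picked for its detection pattern, so this bound is no test of a difference between the groups. Among all 20326 untested probes 215 (1.06%) showed the same pattern and 248 (1.22%) its opposite. The 2 tested Bcl2l2 probes read -0.29 and -0.22. The probe is annotated to AK013244, the tested ones to NM_007537.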

How the results depend on the processing

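The count of BCL-2 family probes called was 0 under all 8 other settings and with each of the 6 arrays left out. The lowest adjusted p was 0.265 and 0.221 there (limma). Where few or no probes passed at all, as with the replicate block or an array left out, this 0 says little about the family. Only 15 family probes entered the fit with detection on all 6 arrays, and 9 with 1 probe per gene. Of 150 probe values under the 8 settings 1 turned its sign, Bcl2 ILMN_1215796, at 3.7e-04 without background correction. With 1 array left out, 14 of 126 values turned. The ranges of the probes concerned were -0.0016 to 0.16 for Bcl2 ILMN_1249366, -0.27 to 0.030 for ILMN_2706514, -0.26 to 0.22 for ILMN_1215796 and -0.33 to 0.080 for ILMN_2597567. They were -0.31 to 0.018 for Bbc3 ILMN_2690620, -0.25 to 0.21 and -0.27 to 0.28 for Pmaip1 ILMN_2670625 and ILMN_1245289, and -0.078 to 0.39 for Bid ILMN_2757287. Outside the family, Blk ranged from -0.13 to 0.60 and Cd79b from -0.37 to 0.20. Over all probes, 31 calls became 155 without background correction, 62 with median scaling, 112 in the deposited log2 values, 9 without the filter, 59 with detection on all 6 arrays and 191 with a trended robust prior, and 1 to 17 with an array left out. Of the 62 calls after median scaling 33 were lower and 29 higher, whereas the main fit called 12 lower and 19 higher. The median-scaled fit gave every tested family probe, and Casp9, the same standard error (0.31). For these probes its p-values therefore follow the size of the difference alone and ignore each probe's own spread. Its 0 family calls show only that no family difference was large against that common error. The 1 call in the pathway lists became 4 without background correction, 2 in the deposited values, 0 without the filter, 4 with the trended robust prior, and 0 to 1 with an array left out. With the replicate number as a block, 0 probes and 0 pathway calls passed. Arrays of the same number did not deviate together from their group means (correlations 0.0348, -0.0943 and -0.246 over tested probes), so the numbers were not taken as pairs. Arrays of unlike number had correlations from -0.219 to 0.332, the highest between DOCK8-deficient array 3 and wild type array 2. With 3 arrays a group these values cannot exclude a pairing. The cause of these changes was not tested, apart from fewer arrays, fewer probes or lost degrees of freedom where the setting itself brings them. Signal near background limits the probes of Pmaip1, Bak1 and Bcl2l1, the second Bid probe and the dimmer Bbc3 probes.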
